A study of Homo sapiens with 8 samples.

Results

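The GATA2 regions described here lay close together in the genome. Peaks of 4 GATA2 peak lists on chromosomes 1 to 22, X and Y were joined into regions wherever they overlapped by at least 1 bp. Regions with a gap of less than 12.501 kb to their neighbour were then chained, and every chain of 4 or more regions was called a dense cluster. The rule gave 3241 member regions in 710 clusters, which is 8.97% of 36122 regions. The members were chosen by peak positions alone, over all 4 lists, and their number and spacing are therefore a description and not a finding. The authors' fold enrichment, the recurrence of a region between lists, its distance to genes and its promoter sequence were not used by the rule.

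The lists came from ChIP-seq, the sequencing of DNA precipitated with an antibody against GATA2, in VCaP, a single established cell line of castrate-resistant prostate cancer. All cells had 72 h of culture without steroids. For the last 24 h they received either DMSO, the solvent, or 1 µM JQ1, an inhibitor of the bromodomains with which BET proteins bind acetylated histones. The sample names of the control group say that it was not treated, and it is called untreated here. Each group had 2 GATA2 precipitates, each with its own peak list, and 2 input chromatin samples, for which no list was used here. The labels do not say that the replicates were separate cultures, and p-values then measure only the spread between these samples, which may be technical.

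GATA2 is a zinc-finger transcription factor that binds short DNA motifs with a GATA core. In prostate cancer cells it is known to open enhancers together with FOXA1, among them those of androgen-regulated genes. Enhancers that control a gene are often grouped over long stretches of DNA, and a transcription factor can bind several sites of such a group.

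Promoter sequences show what a GATA2 region at a gene start holds. Of the members, 23 (0.71%) overlapped a promoter window, taken as 250 bases before to 50 bases after a gene start in the RefSeq promoter table for GRCh38.p14, against 243 (0.739%) of the other regions. Of these, 3 protein-coding promoters are shown, since a GATA motif stood in the part that the region covered and the peak was in 3 or 4 lists. They are printed from the strand of the gene, and capitals mark AGATAA, its reverse complement TTATCT, or the shorter GATAA that AGATAA contains. DNAH5 codes for an axonemal dynein chain, ADD3 for the membrane skeleton protein gamma adducin, and EHF for an epithelial ETS transcription factor.
DNAH5, chr5:13944689-13944938, minus strand: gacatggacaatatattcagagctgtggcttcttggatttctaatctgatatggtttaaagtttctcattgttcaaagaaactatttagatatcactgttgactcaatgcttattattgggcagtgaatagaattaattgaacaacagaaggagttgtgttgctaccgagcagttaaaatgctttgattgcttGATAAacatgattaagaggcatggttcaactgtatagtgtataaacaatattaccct
ADD3, chr10:109996153-109996372, plus strand: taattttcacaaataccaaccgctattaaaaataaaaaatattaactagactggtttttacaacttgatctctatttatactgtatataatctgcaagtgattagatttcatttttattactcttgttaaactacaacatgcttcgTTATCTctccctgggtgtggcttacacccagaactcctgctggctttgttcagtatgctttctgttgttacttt
EHF, chr11:34632316-34632434, plus strand: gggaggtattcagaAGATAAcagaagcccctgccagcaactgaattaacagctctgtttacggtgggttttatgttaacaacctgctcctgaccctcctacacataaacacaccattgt

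The DNAH5 region had a fold enrichment of 15.3 and 23.2 in untreated replicates 1 and 2 and of 11.8 and 32.5 in JQ1 replicates 1 and 2. The ADD3 region had 4.10 and 15.98 untreated and 4.55 and 18.9 with JQ1. In both, the values of the treatments overlapped and the replicate 2 lists were higher. The EHF window belongs to a start inside the EHF span, and its region had 4.85 and 13.0 untreated and 8.72 in JQ1 replicate 2, with no peak in JQ1 replicate 1. Searched on both strands of the whole 300-base window, AGATAA was found in 5 of the 23 promoters covered by members (21.7%), in 36.9% of 260 promoters covered by other regions and in 10.3% of all 35116 promoters. GATAA was found in 11 of the 23 (47.8%), in 61.5% of those covered by other regions and in 22.7% of all. A match is a run of letters and not a measured binding site. Sequence under the other members was not analysed here.

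The 4 lists differed strongly in length, and this difference set much of what a cluster looked like in each. The replicate 1 lists were short, with 6902 peaks untreated and 4974 with JQ1, and the replicate 2 lists long, with 27373 peaks untreated and 32404 with JQ1. Reads under a summit, recovered from the deposited fold and p-value, had a median of 22 and 37 in untreated replicates 1 and 2 and of 20 and 24 in the JQ1 replicates, and the deposited values of untreated replicate 2 held its reads scaled by 0.686. The total depth of the libraries is not in the lists.

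The clusters were mostly short and sparse stretches of a few regions. Of them, 472 held 4 regions, 148 held 5, 51 held 6 and 39 held 7 or more, with 11 at most. A cluster spanned 17.3 kb at the median, from 1.69 to 61.6 kb, and all clusters together 12.8 Mb. The regions covered 7.25% of the span at the median. Neighbouring members were 3.95 kb apart at the median, against 35.5 kb between neighbours over all regions. Chain sizes fell off smoothly across the limit, with 1377 chains of 3 regions just outside it. The gap limit also cut through a continuous range, with 469 gaps in the last 1 kb inside it and 449 in the first 1 kb outside it. Chains of 3 regions had a median span of 9.64 kb and clusters of 4 regions 14.7 kb, and 11.5% and 12.4% of their regions were in all 4 lists.

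**Figure D1:**
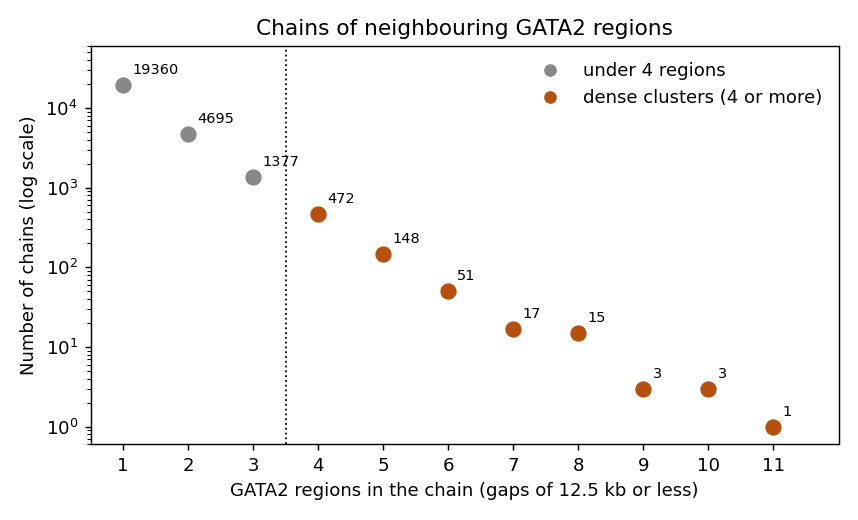
Number of chains (log scale) against the number of GATA2 regions in the chain, with dense clusters to the right of the dotted line. The counts fall from 19360 lone regions to 1377 chains of 3, 472 clusters of 4 and 1 cluster of 11, with no break at the limit.

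Nearly every cluster held a peak in each replicate 2 list, and fewer did in the replicate 1 lists. Of the 710 clusters, 459 held a peak in untreated replicate 1 (64.6%), 707 in untreated replicate 2 (99.6%), 406 in JQ1 replicate 1 (57.2%) and 703 in JQ1 replicate 2 (99%). The means were 82.1% ± 24.7 (SD, n = 2) untreated and 78.1% ± 29.6 (SD, n = 2) with JQ1, a difference of -4.01 percentage points (two-sided exact permutation p = 0.667). No p under 0.33 can come out of this test with so few lists. In all, 345 clusters were occupied in 4 lists, 174 in 3, 182 in 2 and 9 in a single list, which was untreated replicate 2 for 7 of them and JQ1 replicate 2 for the other 2.

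How dense a cluster was depended on the list. Untreated replicate 2 had 4 or more regions in 322 of the clusters and JQ1 replicate 2 in 475, while untreated replicate 1 had them in 8 and JQ1 replicate 1 in 1. Both replicate 2 lists had 4 or more regions in 217 clusters, only the untreated list in 105, only the JQ1 list in 258, and neither in 130, where regions from different lists made up the count. Every region of the cluster was present in 205 clusters of untreated replicate 2 and in 373 of JQ1 replicate 2. Within replicate 1 the JQ1 list had fewer regions than the untreated list in 204 clusters, more in 107 and as many in 399. Within replicate 2 the order was the opposite, with fewer in 155, more in 350 and as many in 205, as in the lists' lengths.

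The share of each list that fell into clusters differed little between treatments. The clusters held 718 peaks of untreated replicate 1 (10.4%, 95% Wilson interval 9.70 to 11.1), 2589 of untreated replicate 2 (9.46%, 9.12 to 9.81), 574 of JQ1 replicate 1 (11.5%, 10.7 to 12.46) and 2933 of JQ1 replicate 2 (9.05%, 8.74 to 9.37). These intervals cover counting error only. The share was higher in the short replicate 1 lists than in the long replicate 2 lists with either treatment. Its mean was 9.93% ± 0.668 (SD, n = 2) untreated and 10.3% ± 1.76 (SD, n = 2) with JQ1 (two-sided exact permutation p = 1). The number of peaks in clusters was 1653.5 ± 1323 (SD, n = 2) untreated and 1753.5 ± 1668 (SD, n = 2) with JQ1, or -0.07 as the log2 ratio of geometric means (two-sided exact permutation p = 1).

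Peaks in clusters were as enriched as other peaks at the median. The authors' median fold enrichment in clusters was 6.14, 7.42, 5.96 and 6.64 in untreated replicates 1 and 2 and JQ1 replicates 1 and 2, against 6.14, 7.46, 5.94 and 6.62 outside. The upper end differed more, with 10% of the clustered peaks of untreated replicate 2 at a fold of 20 or more against 7.65% of the others. In JQ1 replicate 2 these shares were 6.34% and 5.00%, in untreated replicate 1 they were 1.11% and 1.05%, and in JQ1 replicate 1 they were 0.523% and 0.364%. Between treatments, log2 median fold in clusters differed by -0.10 (two-sided exact permutation p = 0.667). The difference between clustered and other peaks changed by 0.007 with JQ1 on the log2 scale (two-sided exact permutation p = 0.33, the smallest possible).

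**Figure D2:**
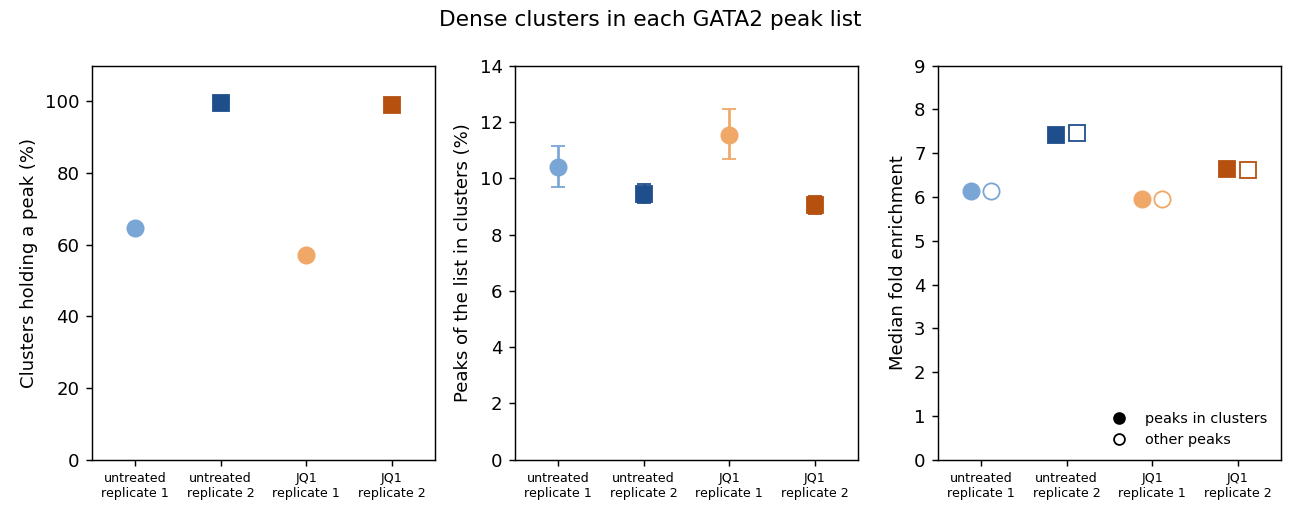
For each list, the share of the 710 clusters with a peak (left), the share of the list's peaks in clusters with 95% Wilson intervals (middle) and the authors' median fold of clustered (filled) and other peaks (open, right). The replicate 2 lists occupy 99.6% and 99% of clusters and the replicate 1 lists 64.6% and 57.2%, while filled and open symbols nearly coincide in every list.

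A larger share of member regions than of regions elsewhere recurred between lists. Of the members, 394 (12.2%) were present in all 4 lists, against 8.96% of all regions and 8.64% of those outside clusters. This share did not rise steadily with the size of the chain. It was 7.49% for lone regions, 11.5% in chains of 3, which are not clusters, 12.4% in clusters of 4 and 9.30% in clusters of 6 or more. Both untreated lists shared 660 members (20.4%, against 17.6% of all regions) and both JQ1 lists 547 (16.9%, against 13.1%). Conversely, 1242 members (38.3%) were in a single list, against 40% of all regions, and 1177 (36.3%) were only in both replicate 2 lists, against 38%. None was only in both replicate 1 lists, which 0.0194% of all regions were. Of the 660 members found in both untreated lists, 59.7% were also in both JQ1 lists, against 50.8% of all such regions. In the other direction the share was 72.0%, against 68.6%. Local background is what the caller expects at a summit without binding; it was recovered from the deposited fold and p-value, is given as times the lowest value of its list, and was higher in clusters. Over the 639 clusters whose median background was at most 3 times the list's lowest, 11.8% of 2880 members were in all 4 lists against 7.94% of regions in other chains with such a background. Neighbouring regions share a locus and are not independent, and these shares describe these lists.

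The strongest site of a cluster was mostly the same in different lists. Among 700 clusters with a peak in both replicate 2 lists, the region with the lowest p-value was the same in 512 (73.1%). The other pairs of lists had 72.3% to 78.6%, and 216 of 345 clusters occupied in 4 lists (62.6%) had the same leading region in each. The pairs within a treatment (75.5% and 77.1%) and within a replicate (78.6% and 73.1%) covered a similar range. In the replicate 1 lists the leading region was often the only one present. Only 185 of 459 occupied clusters of untreated replicate 1 and 127 of 406 of JQ1 replicate 1 had 2 or more regions. The shares that involve a replicate 1 list therefore say little about an order of strength, and no share by chance was computed. The leading region of untreated replicate 2 was in all 4 lists in 41.4% of its clusters and the remaining regions in 5.87%, and the shares for JQ1 replicate 2 were 39.8% and 5.58%. Leading regions were chosen for their strength, and had a median fold of 14.5 in untreated replicate 2 and of 13.5 in JQ1 replicate 2, against 7.42 and 6.53 for lone regions. The remaining regions had 6.12 and 5.75. These values lack the strongest region of every cluster, while nothing was taken from the lone regions, so the 2 sets cannot be compared for strength. In 41.8% to 45.4% of the clusters a list occupied, the leading region was the first or last of the cluster. End regions made up 44.8% to 45.5% of a cluster's regions on average. That average counts all regions of the cluster, also those without a peak in the list. In members with a single peak in each of the 4 lists, summits lay within 22 bp of each other at the median (322 regions), and in other such regions within 23 bp (2396 regions).

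Within each replicate taken alone, the authors' fold was lower with JQ1 at most members found in all 4 lists (57.4% in replicate 1 and 60.9% in replicate 2). At other regions in all 4 lists these shares were 61.6% and 59.6%. Most members were not lower in both replicates. The median fold of the 394 members was 7.27 and 18.9 in untreated replicates 1 and 2 and 6.61 and 17.5 in the JQ1 replicates. Within replicate 1 the median log2 ratio of JQ1 to untreated was -0.09, and within replicate 2 it was -0.19, against -0.17 and -0.16 in the 2842 other regions in all 4 lists. Lower values with JQ1 in both replicates were seen at 149 members (37.8%, against 37.7% of all regions in 4 lists) and higher values in both at 78 (19.8%, against 16.9%), while 167 went in opposite directions. Only 6 members were lower more than 2-fold in both replicates and 1 was higher. They were named after their values were seen. The fold of the region inside the liprin gene PPFIA2 was 14.9 and 54.1 untreated and 7.22 and 18.9 with JQ1, and that inside the myosin gene MYO1D was 13.1 and 14.7 untreated and 6.13 and 7.23 with JQ1. The region in the cluster 23.9 kb from PDE4B, a phosphodiesterase gene, had 11.4 and 34.2 untreated and 4.79 and 10.1 with JQ1. The region inside BFSP2, the gene of a lens filament protein, had 2.83 and 9.72 untreated and 9.25 and 23.7 with JQ1. These regions were picked by that difference, and it was not tested.

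Of the 12 clusters with the most regions, 9 are described here, and what is said of them does not cover the other 3. A cluster of 10 regions over 53.2 kb at EPHB6, a kinase-defective ephrin receptor gene, lay at chr7:142808048-142861270. It had 2 regions in untreated replicate 1, 5 in untreated replicate 2, 2 in JQ1 replicate 1 and 10 in JQ1 replicate 2. Its leading region, chr7:142859864-142860300, had a fold of 13.6 and 30.0 untreated and of 10.1 and 39.5 with JQ1, and the summits of the 4 lists lay between 142860065 and 142860076. A second region in all 4 lists, at chr7:142827829-142828247, had 6.97 and 22.3 untreated and 6.39 and 17.6 with JQ1. Of the remaining 8 regions, 5 were in JQ1 replicate 2 alone and 3 in both replicate 2 lists.

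Other large clusters also joined regions of all 4 lists with regions of fewer lists. At ELOVL7, which codes for a fatty acid elongase, 9 regions spanned 40.7 kb, of which untreated replicates 1 and 2 had 1 and 6, and JQ1 replicates 1 and 2 had 1 and 9. The region common to all 4 lists, chr5:60837851-60838217, had a fold of 26.1 and 13.2 untreated and of 18.7 and 17.1 with JQ1. It stood within the top 2.42% of each list by p-value. The other 8 regions had a fold of 4.53 to 13.5 in untreated replicate 2 and of 2.79 to 6.47 in JQ1 replicate 2, where they had a peak, and the highest of them was slightly above the common region in untreated replicate 2. The cluster nearest to LOC124904228 on chromosome 1, with 9 regions, had 2 common regions. The stronger, chr1:98087785-98089050, had 9.97 and 46.9 untreated and 10.6 and 35.05 with JQ1. The other had 5.66 and 40.6 untreated and 8.59 and 22.6 with JQ1.

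Clusters of 8 to 10 regions also lay 478.2 kb from RALYL, which codes for an RNA-binding protein, 35.2 kb from the carbonic anhydrase gene CA2, and within the bicarbonate transporter gene SLC4A4, the engulfment adaptor gene GULP1 and the glutamate receptor gene GRM3. The CA2 cluster had 2 and 9 regions untreated and 4 and 7 with JQ1. It was the only cluster with 4 or more regions in JQ1 replicate 1. The cluster inside GRM3 had no peak in either replicate 1 list, 5 regions in untreated replicate 2 and 8 in JQ1 replicate 2. Another cluster, 230.4 kb from LOC107986837, had 1 and 7 regions untreated and 2 and 7 with JQ1. None of its 8 regions was in all 4 lists.

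**Figure D3:**
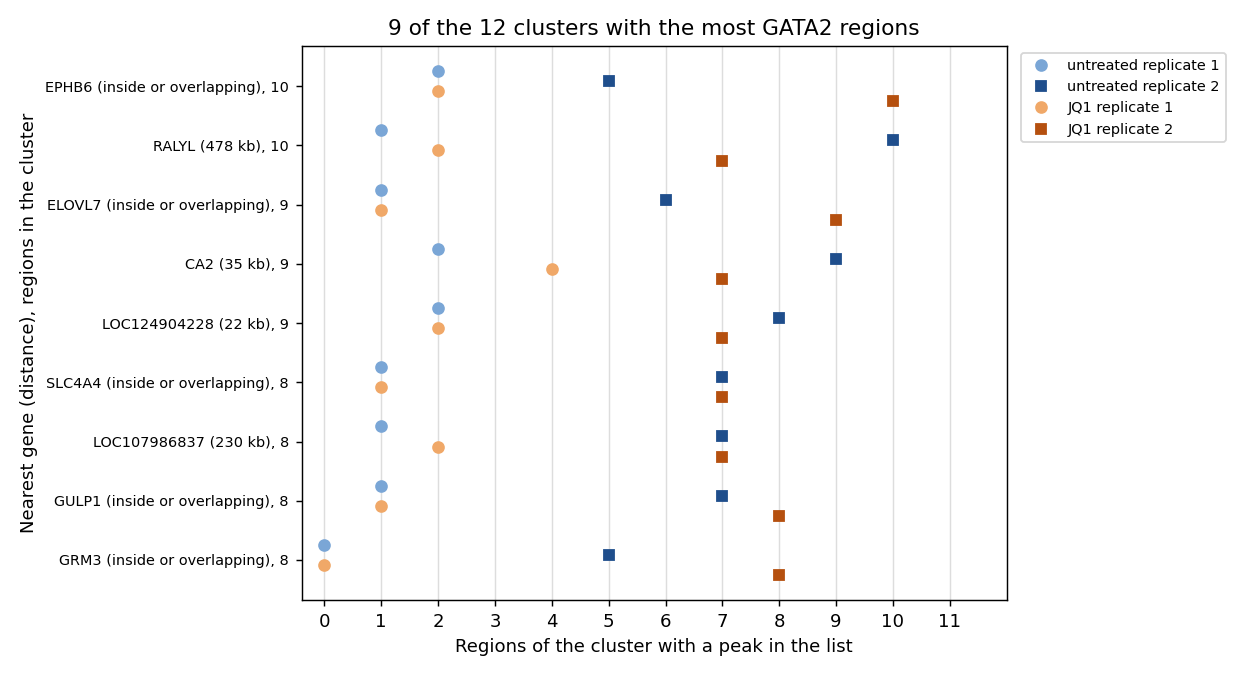
Regions with a peak in each list (points) for 9 of the 12 clusters with the most regions, named by the nearest protein-coding gene and its distance, with the total after the comma. Both replicate 2 lists have 5 or more regions in each of these clusters, while the replicate 1 lists have 4 at most; the other 3 clusters are not drawn.

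Shared sites were most concentrated in other, smaller clusters. Only 60 clusters had 2 regions in all 4 lists and 8 had 3, and 392 had none. Of those 8, the naming rule took the 6 at TNC, SPTBN1, KCNJ15, MAF, AIDA and FNDC3B. TNC codes for the matrix protein tenascin C, SPTBN1 for a spectrin and KCNJ15 for a potassium channel. In the cluster 22.7 kb from TNC, the 3 shared regions had a fold of 6.38, 9.03 and 6.74 in untreated replicate 1 and of 26.7, 20.1 and 21.6 in untreated replicate 2. With JQ1 the values were 9.94, 12.8 and 7.42 in the first list and 21.1, 27.4 and 22.8 in the second. Of these 3 regions, the last 2 were higher with JQ1 in both replicates. The shared regions of SPTBN1 had 5.33 to 10.5 and 15.2 to 17.9 untreated and 5.71 to 8.91 and 10.2 to 27.2 with JQ1. In both clusters the values of the treatments overlapped, and replicate 2 was above replicate 1.

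Inside MAF, the gene of a basic leucine zipper transcription factor, all 3 shared regions were lower with JQ1 in both replicates. Of all regions in 4 lists, 37.7% were lower in both. The region at chr16:79390325-79391000 had a fold of 8.08 and 24.3 untreated and of 3.24 and 15.6 with JQ1. Its peak in JQ1 replicate 1 ranked 99.8% down that list. The region at chr16:79388483-79388728 had 8.72 and 16.7 untreated and 3.96 and 9.61 with JQ1. The third had 4.04 and 4.69 untreated and 3.78 and 4.21 with JQ1. It was weak, ranking 85.0% to 94.5% down each list. Its summit in JQ1 replicate 2 (79381419) lay apart from those of the other lists (79381164 to 79381204). At AIDA, which codes for an axin-interacting protein, the shared regions differed. The region at chr1:222682593-222683099 was higher with JQ1 in both replicates, with 8.47 and 22.8 untreated and 12.4 and 34.1 with JQ1. So was that at chr1:222684672-222685169, with 6.28 and 15.2 untreated and 7.53 and 18.3 with JQ1. At chr1:222694386-222694985, which led every list but JQ1 replicate 1, the order differed between replicates. It had 21.1 and 38.8 untreated and 7.49 and 41.8 with JQ1.

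The best-ranked shared sites lay in clusters of 4 or 5 regions. At 135.4 kb from the homeobox gene IRX3, 4 regions lay within 4.06 kb, and the leading region, chr16:54425598-54426260, had a fold of 34.1 and 38.2 untreated and of 33.9 and 62.1 with JQ1. Its nearest neighbour, at chr16:54425039-54425467, had a peak in the replicate 2 lists only, with 9.34 untreated and 15.2 with JQ1. Inside ZNF462, a zinc-finger gene, the leading region had 24.0 and 22.5 untreated and 30.9 and 36.7 with JQ1. In GRHL2, the gene of an epithelial transcription factor, it had 20.1 and 38.4 untreated and 16.7 and 36.8 with JQ1. The rule also took the clusters 29.8 kb from OR4F15 and 390.5 kb from POU5F1B, where the values were 19.3 and 31.3 untreated and 18.1 and 28.8 with JQ1 at the first, and 15.8 and 12.7 untreated and 7.77 and 21.3 with JQ1 at the second. In the POU5F1B cluster, which spanned 21.8 kb, a second shared region had 6.95 and 22.8 untreated and 5.204 and 11.7 with JQ1, above the leading one in untreated replicate 2. Median local background was 8.18 times the list's lowest in this cluster. It was 3.62 in the OR4F15 cluster, 3.10 at ZNF462, 3.01 at GRHL2 and 1.00 in the IRX3 cluster. Of the leading regions, that of ZNF462 was higher with JQ1 in both replicates, and those of GRHL2 and OR4F15 were lower in both. Those of IRX3 and POU5F1B went in opposite directions between replicates.

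The densest clusters held separate intervals within stretches under 2 kb. Those at AKAP19, SLIT3, SCFD2 and RIOK1 had 4 regions in 1.69, 1.73, 1.81 and 1.90 kb, or 21.0 to 23.6 regions per 10 kb against a median of 2.61. SLIT3 codes for a secreted guidance protein and RIOK1 for an atypical kinase. At AKAP19, 1 region in all 4 lists (fold of 7.80 and 20.8 untreated and of 9.91 and 14.8 with JQ1) stood beside another with 5.12 and 23.9 untreated and 14.5 in JQ1 replicate 2.

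Local background was higher in clusters generally. Its median was 2.48, 1.81, 2.40 and 1.91 for clustered peaks of untreated replicates 1 and 2 and JQ1 replicates 1 and 2, against 2.07, 1.58, 2.13 and 1.77 for other peaks. A median above 3 was found in 71 clusters (10%). The share above 3 was 6.99% of clusters of 4 regions, 12.8% of those of 5, 17.6% of those of 6 and 25.6% of the 39 with 7 or more. Among shorter chains it was 6.79% for lone regions, 5.60% for pairs and 6.97% for chains of 3. The part of background in the density of regions was not tested.

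**Figure D4:**
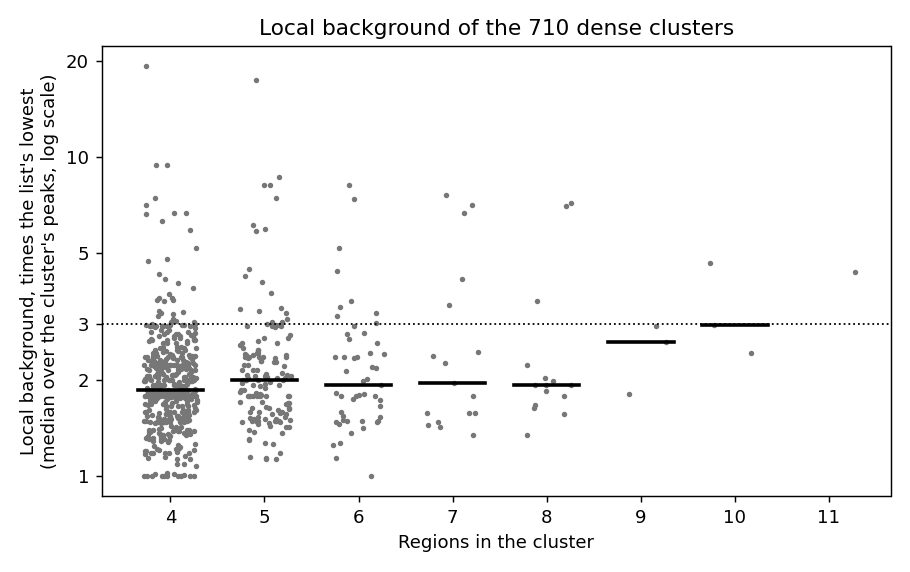
Median local background of each cluster (log scale, in times the lowest value of the list) against its number of regions, with medians as bars and a dotted line at 3. In all, 71 clusters lie above 3, and the median of clusters of 4 regions is 1.86.

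Clusters were spread unevenly over chromosomes. Chromosome 21 had the highest share of its regions in clusters, 113 of 610 (18.5%), and also the highest median background of its peaks (2.96). Chromosome 4 followed with 334 of 2705 (12.3%). The lowest shares were on chromosomes 22 (3.16%), 16 (3.76%) and 19 (3.96%), and none of the 60 regions on Y was a member.

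Most clusters touched a gene, and few were near a gene start. Of the 710 clusters, 425 (59.9%) overlapped the span of a protein-coding gene, 204 lay over 50 kb from any and 110 over 200 kb. Members lay inside such spans in 54.7% of cases, against 49.5% of other regions. Within 1 kb of a protein-coding gene start lay 29 members (0.895%), against 1.26% of other regions, and the median distance to the nearest start was 95.5 kb, against 86.5 kb. The genes that held members were long, with a median length of 186.4 kb over 425 genes, against 24.1 kb over all 20037. A longer span has more room for regions of any kind, and genes that held other regions were not compared.

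The gene spans with the most members held several clusters each. ZFPM2, which codes for a zinc-finger cofactor that binds GATA factors, held 14 members in 3 clusters over 486.1 kb, and 4 of them were in all 4 lists. Its members present numbered 6 and 10 in untreated replicates 1 and 2 and 4 and 13 in JQ1 replicates 1 and 2. DPYD, the gene of a pyrimidine-degrading enzyme, held 13 members in 3 clusters, with 4 and 9 present untreated and 4 and 11 with JQ1. IMMP2L, a mitochondrial peptidase gene, also held 13, with 2 and 9 untreated and 1 and 8 with JQ1. HEMK2, a methyltransferase gene, held 12 over a shorter 309.8 kb, with 3 and 10 untreated and 3 and 11 with JQ1. The calcineurin gene PPP3CA and the cadherin gene CDH12 held 11 each, the adhesion genes NEDD9 and NCAM2 and the tRNA-modifying enzyme gene CDKAL1 held 10, and SH3RF1 held 9. Per length, SH3RF1 and NEDD9 were the fullest of these, with 5.09 and 5.02 members per 100 kb.

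Clusters were found near genes of androgen response and of prostate transcription factors. Of all 20037 protein-coding genes, 3.6% had a cluster within 50 kb of their span. Of 31 androgen-regulated genes 8 had such a cluster (25.8%), and of 28 genes of prostate and epithelial transcription factors 5 had one (17.9%). The gene lists were chosen with earlier results of these data known, and the shares were not adjusted for gene length. The lists of coactivators and BET proteins (28 genes), basal epithelial (24), neuroendocrine (24), hepatocyte (26), and stromal and immune markers (26) had 1 gene each, namely NCOR1, DST, STMN2, ALB and PTPRC. Blood and endothelial genes associated with GATA2 and housekeeping genes had 0 of 28 each. Within 10 kb, where 2.42% of all genes had a cluster, the counts of the first 2 lists were 6 and 5. The counts of the first 2 lists depended on the definition of a cluster. Both were 0 with 6 or more regions, without replicate 2 and at equal list lengths, 1 with a gap of 5 kb, and 3 without untreated replicate 2. They were 13 and 11 with 3 or more regions and 17 and 10 with a gap of 25 kb. The share of all genes under these other definitions is not given here, so these counts cannot be set against it.

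The 8 androgen-regulated genes shared 6 clusters, since KLK2, KLK3 and KLK4 are neighbours. KLK3 codes for prostate-specific antigen, and KLK2 and KLK4 for related proteases. The cluster of 4 regions at chr19:50869441-50885204 held a single strong site. Its fold was 13.7 and 33.4 untreated and 8.12 and 20.1 with JQ1. This site was lower with JQ1 in each replicate, as were 37.7% of all regions in 4 lists. Of the other 3 regions, 2 were in untreated replicate 2 alone (5.64 and 4.12), the first of them in the KLK2 promoter window upstream of the start, and 1 in JQ1 replicate 2 alone (4.90).

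At TMPRSS2, an androgen-regulated protease gene, a cluster of 4 regions lay 12.53 kb from the span, and 2 of them were in all 4 lists. The region at chr21:41521633-41522031 had a fold of 4.80 and 13.3 untreated and of 4.74 and 22.6 with JQ1, and that at chr21:41530352-41530691 had 7.31 and 13.4 untreated and 4.36 and 14.6 with JQ1. Median local background in the TMPRSS2 cluster was 4.02 times the list's lowest, the highest among the clusters of the androgen-regulated genes. In C1orf116, a gene induced by androgen, 1 of 5 regions was in all 4 lists, with 4.88 and 12.7 untreated and 6.85 and 9.25 with JQ1. Inside TRPM8, which codes for a cold-sensing ion channel, 5 regions had 2 and 5 peaks present untreated and 0 and 4 with JQ1. Inside ABCC4, a gene of the ABC transporters, all 4 regions were in the replicate 2 lists only.

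The transcription factor genes with a cluster were NFIB, CREB3L1, EHF, GRHL1 and GRHL2. At NFIB, a nuclear factor I gene, the region chr9:14445202-14445566 had a fold of 12.3 and 29.4 untreated and of 6.50 and 18.1 with JQ1. CREB3L1 codes for a membrane-bound factor of the secretory pathway, and its shared region had 11.5 and 20.9 untreated and 7.52 and 12.49 with JQ1. Inside EHF, the shared region next to the printed promoter had 6.0 and 15.3 untreated and 5.54 and 13.4 with JQ1. These 3 regions were lower with JQ1 in each replicate. Of all regions in 4 lists, 37.7% were lower with JQ1 in both replicates and 16.9% were higher in both. At GRHL1, a relative of GRHL2, no region was in all 4 lists. The region that led both untreated lists had 11.2 and 25.8 there and 12.9 in JQ1 replicate 2. In JQ1 replicate 2 the leading region was chr2:9975177-9975580, with 26.5, against 9.17 in untreated replicate 2.

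Single genes of the other lists had a cluster too. At NCOR1, which codes for a nuclear receptor corepressor, 4 regions were in both untreated lists and in JQ1 replicate 2, and 1 of them was also in JQ1 replicate 1, with 6.10 and 12.8 untreated and 5.54 and 11.6 with JQ1. DST, PTPRC, STMN2 and ALB had no region in all 4 lists. Their highest fold in JQ1 replicate 2 was 9.42, 15.9, 9.37 and 8.82. In untreated replicate 2 it was 14.8, 10.4, 11.9 and 10.9.

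Few members were present in both lists of 1 treatment and absent from both of the other. There were 17 members only in untreated lists (0.525%, against 0.62% of all regions) and 14 only in JQ1 lists (0.432%, against 0.377%). They lay in as many different clusters, so that no cluster held 2 of a kind. The leading untreated region lay inside MLLT3, which codes for a subunit of the elongation machinery, and had a fold of 8.82 and 12.8. The next was inside MIPOL1, with 6.66 and 9.17. A region inside AFP, the alpha-fetoprotein gene, was also of this kind, with 3.54 and 5.64. Among the JQ1 regions, the leading one inside a gene lay in IMMP2L, with 5.13 and 8.19. A region in the cluster of CREB3L1 had 4.55 and 4.77. IMMP2L also held an untreated region, in another cluster, with 3.81 and 11.3.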

How the data were processed

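GATA2 ChIP-seq was analysed from 4 peak lists in VCaP cells. The submitters' processing notes name Bowtie2, Picard, MACS2 and the build hg38, without versions. Peaks were called in each precipitate separately, per the labels of the lists. For each peak the deposited lists hold a score and a linear fold enrichment, and also −log10 values of the p-value and the q-value, as given by the authors' caller. They served only to rank, describe or select peaks inside their own list. The deposited score was not used.

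Lines outside chromosomes 1 to 22, X and Y were dropped, namely 8 lines of untreated replicate 2 and 10 of JQ1 replicate 1. The remaining peaks were merged (overlap of 1 bp), and merged regions were chained at gaps under 12.501 kb with Python 3.11.15, pandas 2.3.3, numpy 2.4.6 and scipy 1.17.1. Chaining and the recovery of values were tested on simulated data. Reads and local background at each summit were recovered as the pair that gives both the deposited fold (pseudocount 1) and the Poisson p-value, for 100% of peaks in 3 lists and 99.997% in JQ1 replicate 2. Between 7 and 365 peaks a list had more than 1 such pair. Group means were compared by a two-sided exact permutation test on log2 or percent values. Library depth is not in the lists.

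Genes are the spans of 20037 protein-coding genes of GRCh38.p14 in RefSeq, and distances run to the span. The members and gene lists were chosen with earlier results of these data known. Named clusters are the 12 with the most regions (of which 9 are described and the others are not reported here), 6 with the most regions in all 4 lists, 5 with the best-ranked shared region, the 4 densest, then genes of the 9 lists with a cluster within 50 kb (at most 6 a list, except that all 8 androgen-regulated genes are named, which was chosen after their values were seen) and the 10 genes holding the most members. Alternatives were other gaps and cluster sizes, stricter q-values, equal list lengths, summit windows, other overlaps and left-out lists.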

Additional observations from a re-analysis of the deposited data

How the results depend on the processing

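The number of members followed the definition. It was 3241 in 710 clusters, 738 in 174 with a gap of 5 kb, 8297 in 1633 with 25 kb, 7372 in 2087 with 3 or more regions, 613 in 90 with 6 or more, and 1979 in 445 at a q-value of 1e-05 or less. With lists of equal length it was 28 in 7, with clusters from the untreated lists alone 1424 in 317, and from the JQ1 lists alone 2144 in 479. Leaving out replicates gave 44 to 3174 members in 11 to 697 clusters, the lowest without replicate 2.

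Several treatment differences changed sign, and no exact permutation test over 2 lists a group could pass. The log2 ratio of peaks in clusters (-0.07) was 0.0315 with a gap of 5 kb, 0.22 with equal lengths and 0.14 with clusters from the JQ1 lists, and -0.89 to 0.18 with a replicate left out. The difference in share of peaks (0.37 points) was -0.68 with clusters from the untreated lists and -0.40 to -0.14 with a replicate left out and the clusters rebuilt. The log2 median fold (-0.10) was 0.041 with clusters from the untreated lists and -0.16 to 0.0566 with a replicate left out. The fold in clusters minus that of other peaks (0.007) was -0.0097 with a gap of 5 kb, -0.0165 with 3 or more regions, -0.0023 at the stricter q-value, -0.13 with equal lengths, -0.0030 with windows of 100 bp around summits and -0.0942 with clusters from the JQ1 lists, but 0.154 with clusters from the untreated lists, 0.0631 with 6 or more regions and 0.0122 to 0.103 with a replicate left out. The difference in clusters occupied (-4.01 points) was 0 with equal lengths, -7.78 with 6 or more regions and -18.2 to -0.717 with a replicate left out, the largest without replicate 2. The share of untreated recurrent members found in both JQ1 lists (59.7%) was 76.9% with equal lengths and 46.9% with a reciprocal overlap of 50%. Leaving out untreated replicate 2 and the gene list counts under other definitions were added after seeing the data. The cause of each change was not tested, except that equal lengths and left-out lists leave fewer peaks.

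The replicate numbers are shared between groups, and the labels do not say that they pair samples. With the replicate block, a sign-flip over 2 pairs whose smallest p is 0.5, the exact p was 1 for the log2 ratio of peaks (-0.07) and for the share (0.37 points), and 0.5 for the median fold (-0.10), the fold against other peaks (0.007) and the clusters occupied (-4.01 points), so no call changed. Over 394 members in all 4 lists, deviations of same-numbered samples correlated at 0.295. The lists give no read totals, so that no limit of detection could be set.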
